A study of Mus musculus with 4 samples.

Results

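The microRNAs encoded inside the mouse Hox gene clusters are described here, in whole embryos with and without ER-alpha, one of the nuclear receptors for estrogen (gene Esr1). They were chosen by name, as every assay for miR-10a, miR-10b, miR-196a, miR-196b, miR-196c or miR-615, and 6 of the 375 microRNA assays matched: mmu-miR-10a, mmu-miR-10b, mmu-miR-196b, rno-miR-196c, mmu-miR-615-3p and mmu-miR-615-5p. The prefixes mmu and rno mark mouse and rat sequences, and no assay carried the name miR-196a. Total RNA came from C57BL/6 embryos at E18.5, 2 wild-type samples and 2 ER-alpha KO samples, and was read by TaqMan real-time PCR over 40 cycles. Both genotypes shared the strain, the stage and the tissue. The labels do not say how the knockout was made, which sex the embryos had, or whether embryos were pooled, so the spread between samples may be partly technical. In whole embryos, a difference in the number of cells of a type and a difference in RNA per cell cannot be told apart.

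Hox genes are transcription factors arranged in 4 clusters that give the body axis, the limbs and the urogenital tract their regional identity, with genes at one end of a cluster acting in the front of the body and those at the other end acting towards the tail. The microRNAs between them are transcribed with their neighbours and repress Hox messages among others. The miR-10 pair is known from the trunk and spinal cord. The miR-196 family lies further towards the posterior genes and is known for repressing Hoxb8 in the hindlimb region.

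In RefSeq (GRCm38.p6), Mir10a (chr11:96317165-96317274, plus strand) lies within the annotated span of Hoxb3, between Hoxb5 and Hoxb4. Mir10b (chr2:74726070-74726137, plus strand) lies within the spans of Hoxd3 and Hoxd4. Mir196b (chr6:52230081-52230165, minus strand) lies between Hoxa9 and Hoxa10. The copies Mir196a-1 (chr11:96265164-96265265) and Mir196a-2 (chr15:102973350-102973434), both on the plus strand, lie between Hoxb13 and Hoxb9 and between Hoxc10 and Hoxc9. Mir615 lies within the span of Hoxc5, with its 3p arm at chr15:103014969-103014990 on the plus strand.

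The mature sequences show how the 2 families divide, and are given 5′ to 3′ with the seed, bases 2 to 8 that pair with target messages, in capitals. The assay names of miR-10a, miR-10b and miR-196b carry no arm, and the 5p arm that such names denote is shown. The sequence of miR-196a is added for comparison. The assay rno-miR-196c is named for a rat microRNA whose sequence was not compared here, so which mouse RNA it reads was not established. It may read the same RNA as mmu-miR-196b or a close relative, and the 2 assays are not taken as 2 separate mouse microRNAs.
miR-10a-5p: uACCCUGUagauccgaauuugug
miR-10b-5p: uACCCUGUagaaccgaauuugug
miR-196a-5p: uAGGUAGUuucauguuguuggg
miR-196b-5p: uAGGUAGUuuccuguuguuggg
The miR-10 pair shares 1 seed and differs at 1 base (U12A, miR-10a first, counted from the 5′ end). The miR-196a and miR-196b sequences likewise share a seed and differ at the same position (A12C, miR-196a first). Among 1679 mature mouse sequences in the RefSeq table, the miR-10 seed was found in 2 and the miR-196 seed in 2, the sequences shown.

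Each well gives a threshold cycle (Ct), and a lower Ct means more RNA, with 1 cycle taken as a doubling. At a Ct of 35 or lower 254 to 290 microRNAs were detected per sample, and the 229 detected in all 4 samples were tested. Wild-type replicate 1 stood apart. Once a constant of 0.273 was taken off, 90.0% of its amplified wells other than U6 lay within 0.1 cycle of a whole cycle, against 21.0% to 26.5% in the other samples. Its 4 amplified Hox-cluster wells lay at most 0.048 cycles from a whole cycle, so its values resolve about 1 cycle. The plant assay ath-miR159a amplified in wild-type replicate 1, at Ct 29.33, and in no other sample. In this replicate rno-miR-196c came up later than the plant assay, at Ct 30.28. This replicate also amplified 336 microRNAs, against 283 to 286 in the others. How much of its signal comes from the named RNAs was not tested, and results are also given without this replicate. PCR gives no read counts, and the number of samples limits the precision.

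The miR-196 assays gave earlier Ct values in both ER-alpha KO samples than in both wild-type samples. For mmu-miR-196b the Ct was 28.23 and 26.86 in wild-type replicates 1 and 2 against 26.09 and 26.43 in ER-alpha KO replicates 1 and 2. For rno-miR-196c it was 30.28 and 29.00 in wild-type against 28.20 and 28.28 in ER-alpha KO samples. The deposited Ct values did not overlap between the genotypes for either assay, before any normalization; this held in that direction for 8.3% of all tested assays.

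**Figure D1:**
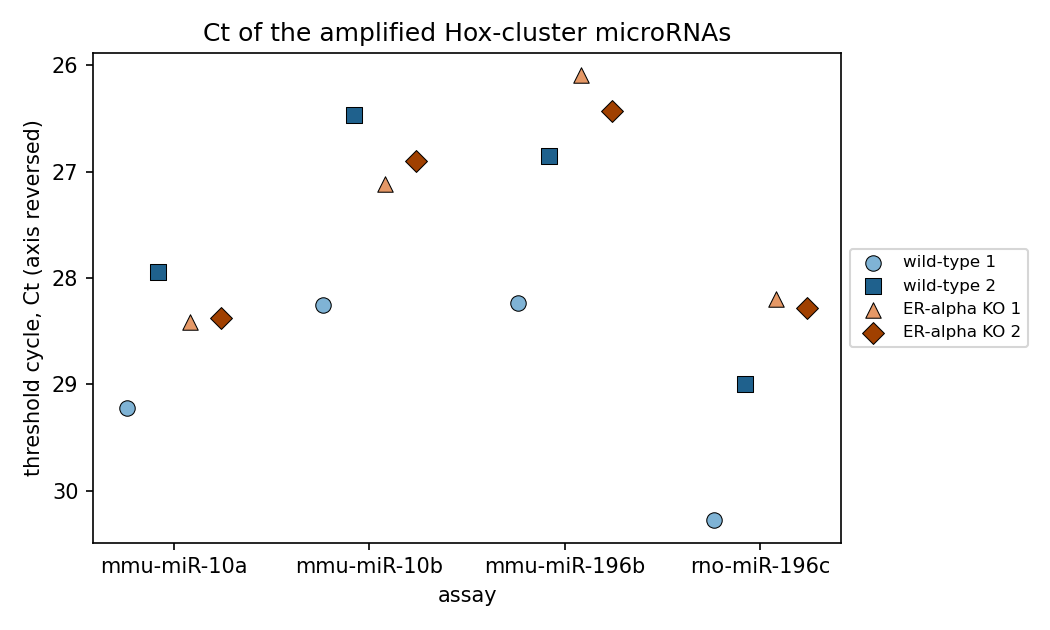
Ct of the 4 amplified Hox-cluster assays in each sample, with the Ct axis reversed so that more RNA is higher; each point is 1 sample. For mmu-miR-196b and rno-miR-196c both ER-alpha KO points stand above both wild-type points, while for the miR-10 assays the wild-type points stand on either side of them.

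The relative level is the distance of a Ct from the median Ct of the 229 tested microRNAs of that sample, on a log2 scale. The level of mmu-miR-196b was 1.00 and 0.51 in wild-type replicates 1 and 2 against 2.10 and 1.39 in ER-alpha KO replicates 1 and 2. Its means were 0.75 ± 0.35 and 1.74 ± 0.50 (SD, n = 2 each), a log2 fold change of 0.99 with a standard error of 0.64, or 1.99-fold. Every ER-alpha KO sample lay above every wild-type sample. The smallest step, from 1.00 to 1.39, starts at wild-type replicate 1 and lies within the resolution of about 1 cycle of that sample.

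The level of rno-miR-196c was -1.05 and -1.64 in wild-type replicates 1 and 2 against -0.0053 and -0.45 in ER-alpha KO replicates 1 and 2. Its means were -1.34 ± 0.42 and -0.23 ± 0.32 (SD, n = 2 each), a log2 fold change of 1.11 with a standard error of 0.64, or 2.16-fold. The groups again did not overlap, and the smallest step, from -1.05 to -0.45, again starts at wild-type replicate 1. In rank among the 229 assays by Ct, which needs no scaling, rno-miR-196c stood at 154 and 159 in wild-type and at 116 and 124 in ER-alpha KO samples. The ranks of mmu-miR-196b, 82 and 99 in wild-type against 75 and 83 in ER-alpha KO samples, overlapped between the genotypes. The rank of 82 is that of wild-type replicate 1, where near whole-cycle readings leave assays almost tied. In that sample mmu-miR-196b at Ct 28.23 ranked 82 and mmu-miR-10b at Ct 28.26 ranked 95, so ranks there are coarse.

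Neither difference passed the test. The limma adjusted p, over all 229 assays, was 0.939 for mmu-miR-196b (unadjusted p = 0.121) and 0.939 for rno-miR-196c (unadjusted p = 0.0819). Over all assays 0 (0.0%) passed an adjusted p of 0.05 by limma, and 10 (4.37%) had an unadjusted p under 0.05. The 95% intervals of the log2 fold change ran from -0.26 to 2.24 for mmu-miR-196b and from -0.14 to 2.36 for rno-miR-196c. Without ER-alpha KO replicate 1 the log2 fold change of mmu-miR-196b was 0.63. Without wild-type replicate 1 those of mmu-miR-196b and rno-miR-196c were 0.91 and 1.07, while the median of all assays went from 0.26 to -0.03. Both samples of ER-alpha KO lay above both of wild-type for 2 of the 4 tested Hox-cluster assays, and for 33.2% of all tested assays, so non-overlap alone is common in these data.

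The miR-10 pair stood at nearly the same relative level in both genotypes. The level of mmu-miR-10b was 0.98 and 0.89 in wild-type against 1.08 and 0.93 in ER-alpha KO replicates 1 and 2. Its means were 0.94 ± 0.06 and 1.00 ± 0.11 (SD, n = 2 each), with a log2 fold change of 0.07 and a 95% interval from -1.19 to 1.32. The level of mmu-miR-10a was 0.01 and -0.58 in wild-type against -0.22 and -0.55 in ER-alpha KO replicates 1 and 2. Its means were -0.28 ± 0.42 and -0.39 ± 0.23 (SD, n = 2 each), with a log2 fold change of -0.10 and a 95% interval from -1.35 to 1.15. The 2 groups overlapped for both assays.

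The intervals of the miR-10 assays leave room for a change of about the size measured for miR-196, so equal levels are not shown. Their width comes from the variance shared over all assays, with a standard error of 0.64 for each assay. With the own variance of each assay the standard error was 0.09 for mmu-miR-10b and 0.34 for mmu-miR-10a, each from 2 samples per group. The limma adjusted p was 0.984 for mmu-miR-10b and 0.964 for mmu-miR-10a. Both fold changes lay below the median of all tested assays, 0.26. The sign also moved with the scaling: against the mean of the 5 small-RNA controls they were 0.35 and 0.18, and with centring on the average profile -0.24 and -0.41 (mmu-miR-10b first). Without wild-type replicate 1 they were -0.22 for mmu-miR-10b, which turned, and -0.14 for mmu-miR-10a. By Ct, mmu-miR-10b ranked 93 to 97 of 229 in the 4 samples and mmu-miR-10a 108 to 127.

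**Figure D2:**
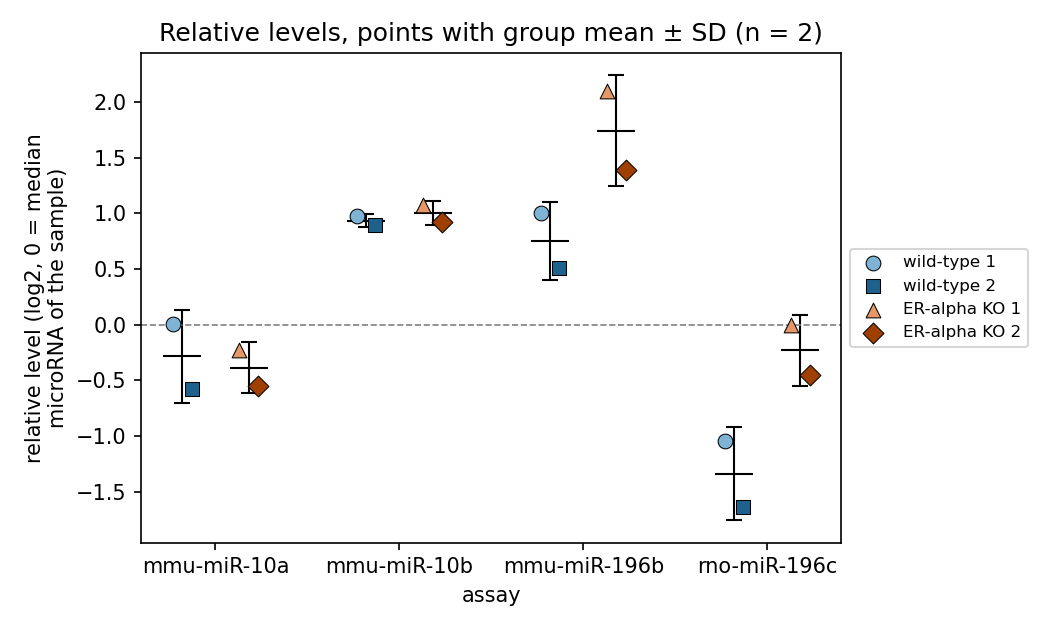
Relative level (log2 units, 0 is the median tested microRNA of the sample) of the 4 amplified Hox-cluster assays; points are samples, and bars are the mean ± SD of the 2 samples of a genotype. The means of mmu-miR-196b are 0.75 and 1.74 and those of rno-miR-196c -1.34 and -0.23, without overlap of samples, while the samples of the miR-10 assays overlap.

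**Figure D3:**
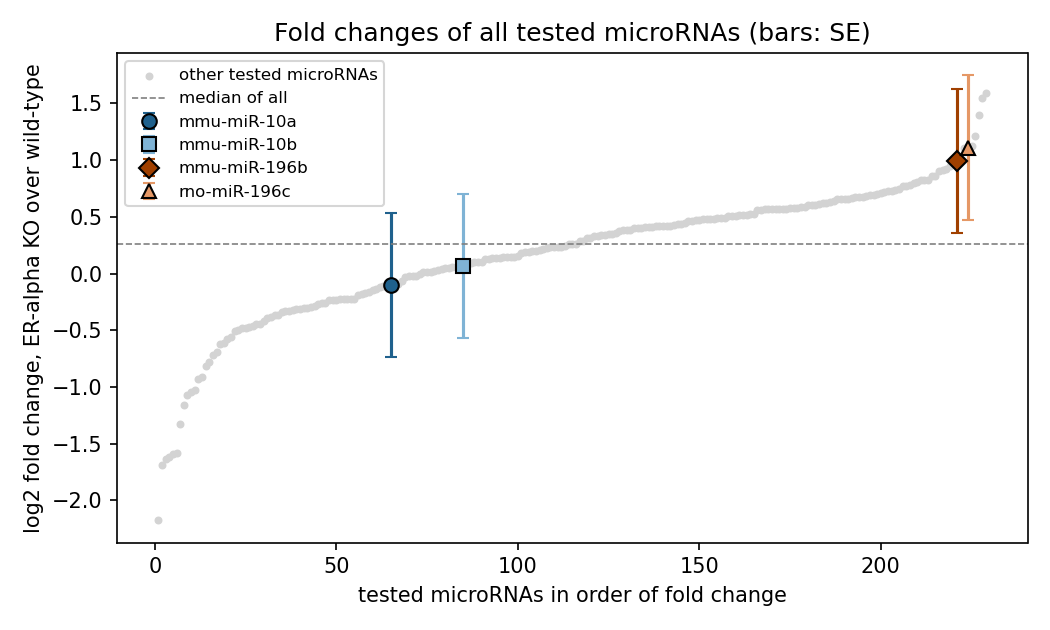
Log2 fold change (ER-alpha KO over wild-type) of the 229 tested microRNAs in ascending order, with the Hox-cluster assays marked and their standard errors of 0.64 as bars; the dashed line is the median of all, 0.26. The miR-196 assays stand near the upper end at 0.99 and 1.11, below the highest value of 1.59, and the miR-10 assays stand below the median.

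A Ct difference between 2 assays of the same sample needs no normalization, and a constant added to the wells of a sample cancels in it. It depends on unknown assay efficiencies, so it is read only as a shift between genotypes. There are 6 pairs among the 4 amplified assays, of which 4 set a miR-196 assay against a miR-10 assay. These 4 pairs share assays and are not independent of each other.

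The pair rno-miR-196c minus mmu-miR-10a differed by 1.06 and 1.06 cycles in wild-type replicates 1 and 2 but by -0.22 and -0.10 cycles in ER-alpha KO replicates 1 and 2. Thus the rno-miR-196c assay came up after mmu-miR-10a in both wild-type samples and before it in both ER-alpha KO samples. The means were 1.06 ± 0.0017 and -0.16 ± 0.09 (SD, n = 2 each), a shift of -1.21 cycles, or a ratio 2.32-fold higher in ER-alpha KO. The very small wild-type SD includes the near whole-cycle readings of replicate 1, and without that sample the shift was -1.21 as well.

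The pair mmu-miR-196b minus mmu-miR-10a differed by -0.99 and -1.08 cycles in wild-type replicates 1 and 2 but by -2.32 and -1.94 cycles in ER-alpha KO replicates 1 and 2. Its means were -1.04 ± 0.07 and -2.13 ± 0.27 (SD, n = 2 each), a shift of -1.09 cycles, and -1.05 without wild-type replicate 1. Against mmu-miR-10b the shifts were -0.92 cycles for mmu-miR-196b (-1.13 without wild-type replicate 1) and -1.04 cycles for rno-miR-196c (-1.30 without it). In all 4 pairs across the families the genotypes did not overlap, and the ratio of miR-196 to miR-10 was higher in each ER-alpha KO sample than in either wild-type sample. Against mmu-miR-10b the closest samples were wild-type replicate 1 and ER-alpha KO replicate 2. They stood at -0.02 and -0.47 cycles for mmu-miR-196b and at 2.025 and 1.38 for rno-miR-196c. These steps lie within the resolution of about 1 cycle of wild-type replicate 1.

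Within a family the differences moved less. Between rno-miR-196c and mmu-miR-196b the difference was 2.05 and 2.14 cycles in wild-type replicates 1 and 2 against 2.10 and 1.85 in ER-alpha KO replicates 1 and 2, a range of 0.30 cycles. Between mmu-miR-10b and mmu-miR-10a it was -0.97 and -1.47 in wild-type against -1.30 and -1.48 in ER-alpha KO replicates 1 and 2, a range of 0.51 cycles. The genotypes overlapped in both, and the shifts were -0.12 and -0.17 cycles. Over all 26106 pairs of tested assays, the median range over the 4 samples was 1.37 cycles and the median absolute shift 0.50 cycles.

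An exact two-sided permutation test gave p = 0.333 for each of the 4 pairs across families, which is the lowest value possible with 2 samples per group, and p = 0.667 for both pairs within a family. The design cannot reach 0.05. Genotypes did not overlap in 34.4% of all pairs of tested assays, against which the 4 of 6 here, built from 4 assays, must be read.

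**Figure D4:**
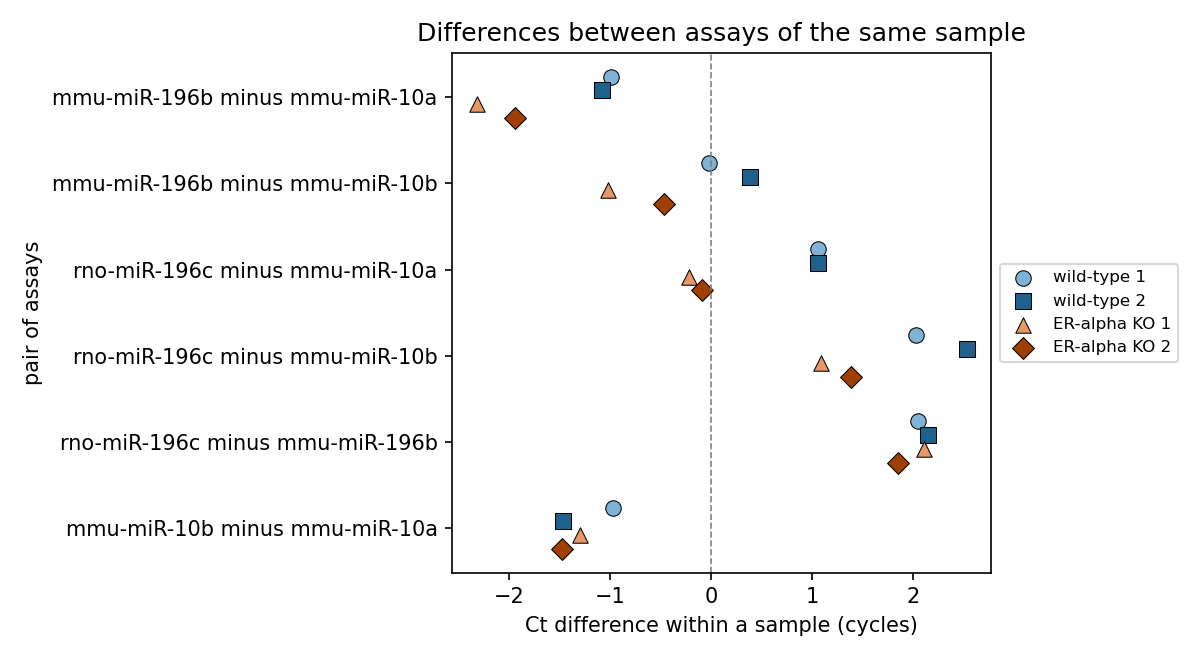
Ct difference in cycles between 2 Hox-cluster assays of the same sample, for the 6 pairs; each point is 1 sample and the dashed line marks equal Ct. In the 4 pairs that set a miR-196 assay against a miR-10 assay, both ER-alpha KO points lie to the left of both wild-type points; in the 2 pairs within a family they overlap.

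The small-RNA controls put the miR-196 values on another footing. Scaled to the mean of MammU6, U87, Y1, snoRNA135 and snoRNA202, mmu-miR-196b stood at -3.63 and -2.69 log2 units in wild-type against -1.80 and -1.98 in ER-alpha KO replicates 1 and 2. On that scale rno-miR-196c stood at -5.68 and -4.83 in wild-type against -3.90 and -3.83 in ER-alpha KO replicates 1 and 2. The log2 fold changes were 1.27 and 1.39, and neither assay overlapped between genotypes, as for 20.5% of all tested assays in that direction.

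The controls themselves differed among samples. The Ct of U87 was 26.26 and 27.80 in wild-type against 26.08 and 28.26 in ER-alpha KO replicates 1 and 2, and the mean Ct of Y1 was 0.58 cycles later in ER-alpha KO. Scaled to 1 control at a time, the log2 fold change of mmu-miR-196b ran from 1.01 (snoRNA202) to 1.87 (Y1) and that of rno-miR-196c from 1.13 to 1.99. For both assays the ER-alpha KO samples lay above the wild-type samples with 4 of the 5 controls, the exception being U87. Of all tested assays 3.93% lay so with MammU6, 28.4% with snoRNA202, 32.3% with snoRNA135, 62.9% with Y1 and 0.0% with U87, so the separation is least common with MammU6 and U87 and common with the rest. On the same 5 scales mmu-miR-10a ran from -0.09 to 0.77 and mmu-miR-10b from 0.08 to 0.94. Both miR-10 assays also lay above without overlap when scaled to Y1, and mmu-miR-10a lay below when scaled to snoRNA135, as did 9.61% of all assays.

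**Figure D5:**
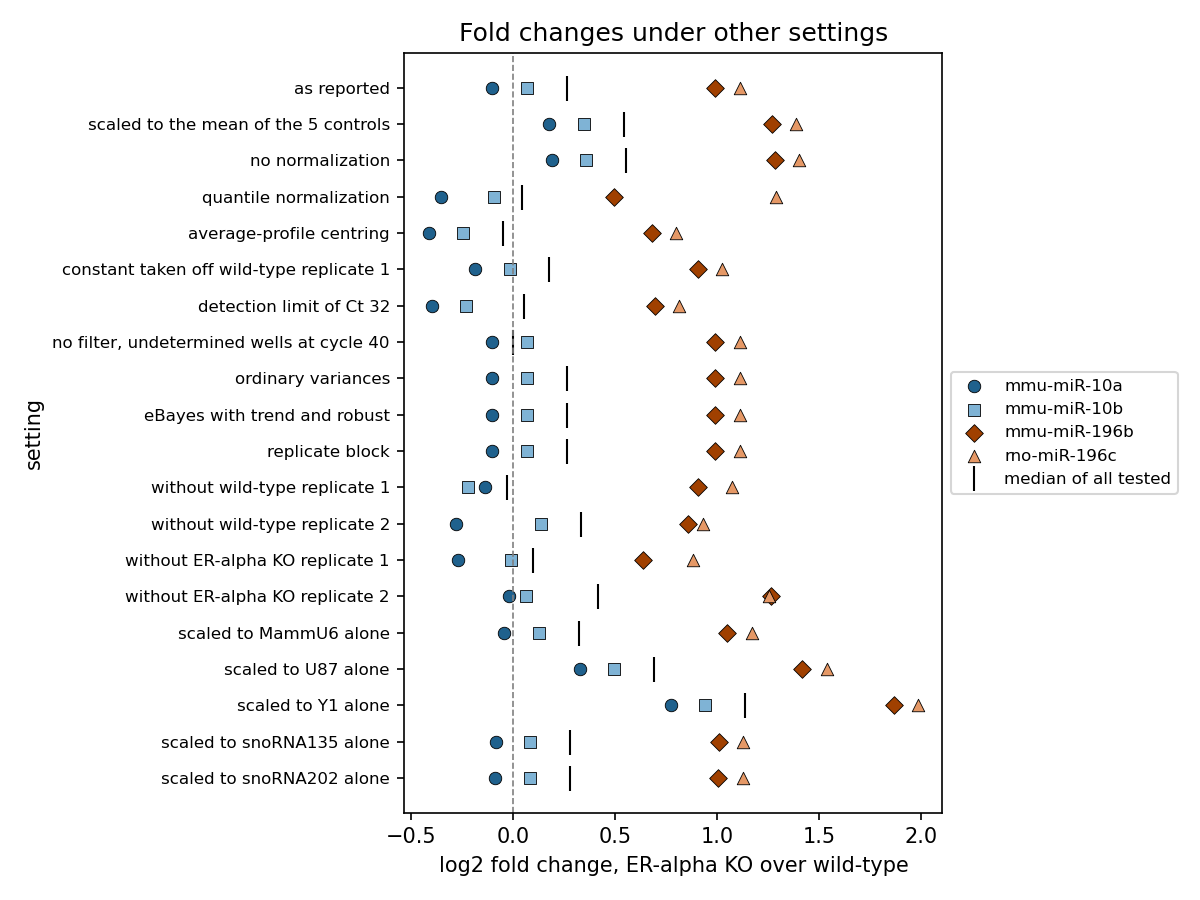
Log2 fold change (ER-alpha KO over wild-type) of the 4 tested Hox-cluster assays under each setting of scaling, filter, fit and samples, with the median of all tested microRNAs as a black bar. The values of mmu-miR-196b (0.50 to 1.87) and rno-miR-196c (0.80 to 1.99) lie above 0 and above the median of all in the 19 other settings, of which 4 cannot move a fold change and 10 move all assays alike, while those of the miR-10 assays lie on both sides of 0.

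Both arms of miR-615, which is encoded within Hoxc5, gave no amplification within 40 cycles in any of the 4 samples. They are therefore not among the tested assays, and no fold is given. The panel holds 1 well per assay and sample, so a failed assay and RNA below the detection limit cannot be told apart.

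The assays nearest to each member were found by the Euclidean distance between their levels in the 4 samples, each level taken minus its own mean. Among 228 other assays the nearest to mmu-miR-196b was rno-miR-196c (distance 0.23 log2 units), followed by mmu-miR-16, a cell-cycle microRNA (0.34), and mmu-miR-125a-3p (0.34); the median distance was 1.08. The nearest to rno-miR-196c was mmu-miR-196b, followed by mmu-miR-125a-3p (0.41) and mmu-miR-493 of the imprinted Dlk1-Dio3 domain (0.43). So each miR-196 assay had the other as its closest profile. Whether the miR-196 assays read the same RNA was not tested, and a distance between levels cannot show it.

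The miR-10 assays did not pair in this way. The nearest to mmu-miR-10a were mmu-miR-148a (0.13), rno-miR-351 (0.15) and mmu-let-7f (0.15), and mmu-miR-10b came at rank 24 (0.41). The nearest to mmu-miR-10b were mmu-miR-26b (0.16), the epithelial mmu-miR-200c (0.18) and mmu-miR-130a (0.18). These distances rest on 4 samples that all assays share, wild-type replicate 1 included, and are a description without a test.

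The let-7 family, which accumulates as cells differentiate, has a seed that overlaps that of miR-196. Its seed holds 6 of the 7 seed bases of miR-196 shifted by 1 position, the run AGGUAG, which starts at base 2 in miR-196 and at base 3 in miR-98, the let-7 relative shown here.
miR-98-5p: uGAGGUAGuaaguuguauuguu
All 9 let-7 and miR-98 assays were tested, their log2 fold changes ran from -0.29 to 1.59 with a median of 0.15 (-0.25 without wild-type replicate 1), and 0 passed the limma test. The ER-alpha KO samples lay above the wild-type samples for 2 of the 9, mmu-miR-98 (1.59; Ct 33.27 and 31.11 in wild-type, 31.12 and 29.49 in ER-alpha KO; 1.11 without wild-type replicate 1 and 0.88 without ER-alpha KO replicate 2) and mmu-let-7g (0.73, and 0.08 without wild-type replicate 1), against 33.2% of all assays. The third in size, mmu-let-7e, was at 0.59 and at -0.33 without that sample.

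The relatives of miR-10 by sequence are miR-99a, miR-99b, miR-100, miR-125a and miR-125b. The seed of miR-100 shares a run of 4 bases with that of miR-10, and the longest run common to miR-100 and miR-10a is 11 bases.
miR-100-5p: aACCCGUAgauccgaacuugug
Of 7 assays for these names 6 were tested, with a median log2 fold change of -0.30 and a range from -0.81 to 0.71, and 0 passed the limma test. The lowest was mmu-miR-99b at -0.81 (-0.67 without wild-type replicate 1), with Ct 28.26 and 27.34 in wild-type against 28.46 and 28.18 in ER-alpha KO replicates 1 and 2. The highest was the other arm of a precursor, mmu-miR-125a-3p at 0.71 (0.66 without that sample), and mmu-miR-99a was at -0.44 (-0.17). The 5p arm mmu-miR-125a-5p, named after its values were seen, turned from 0.31 to -0.74 without that sample, and the median of the list was then -0.42. ER-alpha KO samples lay below wild-type samples for 2 of the 6, against 6.11% of all assays, and above for 1, the other arm mmu-miR-125a-3p. The median of these relatives was above 0 in 2 of the 20 settings but below the median of all assays in each of them. Of these settings 4 cannot move a fold change and 10 move all assays alike. Only 5 move assays apart, so the 20 are not separate checks.

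MicroRNAs typical of tissues were read beside the Hox-cluster assays, since a whole embryo mixes many organs. Of 34 assays in 8 lists (striated muscle, neural, liver, blood cells, endothelium, epithelium, kidney and gut, pancreas) 30 were tested. The other 4 were mmu-miR-208, mmu-miR-216a, mmu-miR-217 and mmu-miR-219. List medians of the log2 fold change ran from 0.06 for neural to 0.78 for the liver microRNA mmu-miR-122, with 0.42 for striated muscle, 0.53 for blood cells and 0.44 for kidney and gut. Without wild-type replicate 1 they ran from -0.36 for pancreas to 0.28 for liver, each a list with 1 tested assay. Striated muscle was then at 0.17, blood cells at -0.15, kidney and gut at -0.09 and neural at -0.17. ER-alpha KO lay above wild-type without overlap for 13 of the 30 and below for 1, against 33.2% and 6.11% of all assays, and 0 passed the limma test.

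Only mmu-miR-138, a brain-enriched microRNA at 1.39 (0.39 without wild-type replicate 1), was at or above the value of mmu-miR-196b among these 30. The other tested neural assays were at -0.92 (mmu-miR-124), 0.34 (mmu-miR-128a) and -0.23 (mmu-miR-9). Without wild-type replicate 1 the 30 had a median of 0.04 and a highest value of 0.60, below the 0.91 of mmu-miR-196b. Among all 241 assays tested without that sample, 8 were at or above mmu-miR-196b and 6 at or above rno-miR-196c, each count including the assay itself. The part of the makeup of the embryos in the miR-196 values was not tested.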

How the data were processed

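Per the file headers, the authors deposited threshold cycles (Ct), with 1 well per assay and 4 wells for U6, which were averaged. Threshold, baseline and any normalization are not given in the sources used here. Wells without amplification, written as undetermined or, in wild-type replicate 1, standing above cycle 40 (39 wells), were treated as missing. The 1141 lines without an assay in 1 file were not used.

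Assays with a Ct of 35 or lower in all 4 samples were centred on their median per sample, and the relative level is minus the centred Ct. A linear model with the genotype as its term was fitted by limma 3.58.1 (R 4.3.3; lmFit, then eBayes, two-sided tests), with Benjamini-Hochberg adjustment over 229 assays. The fit shared 1 variance over assays. Its procedure was run on simulated data that also had 1 SD for all assays, so that run does not test the shared variance. In the real levels the wild-type SD ran from 0.00053 (mmu-miR-410) to 5.05 (mmu-miR-687). Ct differences between members were compared by an exact permutation test (scipy 1.17.1). Sequences and positions are from RefSeq, matched by name: 5 of the 6 members have a mature sequence there.

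Members, lists and pairs were chosen with earlier results of these data known. Named assays were all members, the 3 nearest profiles of each, up to 3 sequence relatives per list and the controls; tissue microRNAs named with a value were chosen after their values were seen. Alternatives covered scaling, filter, variance, replicate block and each sample left out; scaling to single controls was added after seeing the data. A left-out sample also leaves the filter and the centring.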

Additional observations from a re-analysis of the deposited data

How the results depend on the processing

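The count of microRNAs past the limma adjusted threshold was 0 in the settings run, each sample left out included, except with a replicate block, which gave 1, no Hox-cluster assay. Under the block the limma adjusted p was 0.588 for mmu-miR-196b and 0.449 for rno-miR-196c. Deviations of samples with the same number correlated (r = 0.37 across assays, which are not independent), but there are only 2 such pairs and the labels give the numbers no meaning, so no pairing was assumed. Of 19 other settings, 4 (filter off, both other variance settings, the block) cannot move a fold change and 10 (scaling, centring, the Ct limit) move all assays alike. Only quantile normalization and the 4 left-out samples move assays apart. In these 5 the log2 fold changes of mmu-miR-196b and rno-miR-196c were above 0, and over the 19 the limma adjusted p ran from 0.211 to 0.9996 and from 0.163 to 0.9996. Leaving out 1 sample at a time gave 0.63 to 1.26 for mmu-miR-196b, 0.88 to 1.26 for rno-miR-196c, -0.28 to -0.02 for mmu-miR-10a and -0.22 to 0.14 for mmu-miR-10b. Quantile normalization gave 0.50 for mmu-miR-196b and 1.29 for rno-miR-196c.

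The direction of mmu-miR-10a turned when scaled to the mean of the controls (0.18), to U87 (0.33) or Y1 (0.77) alone, and without normalization (0.19). That of mmu-miR-10b turned with quantile normalization (-0.10), average-profile centring (-0.24), the constant taken off wild-type replicate 1 (-0.018) and a detection limit of Ct 32 (-0.23), and without wild-type replicate 1 (-0.22) or ER-alpha KO replicate 1 (-0.013). The median of all assays moved too, from 0.26 to 0.54 with the controls, 0.55 without normalization, 0.69 with U87 and 1.14 with Y1, and to 0.05 with quantile normalization, -0.05 with average-profile centring, 0.18 with the constant taken off and 0.05 at Ct 32. Leave-one-out shifts of the Ct differences were -1.28 to -0.90 for mmu-miR-196b minus mmu-miR-10a, -1.20 to -0.65 for mmu-miR-196b minus mmu-miR-10b, -1.28 to -1.15 for rno-miR-196c minus mmu-miR-10a, -1.30 to -0.79 for rno-miR-196c minus mmu-miR-10b, -0.25 to 0.0073 for rno-miR-196c minus mmu-miR-196b and -0.42 to 0.081 for mmu-miR-10b minus mmu-miR-10a. In the settings where mmu-miR-10a turned, all assays moved alike, and its value minus the median of all stayed at -0.37. For mmu-miR-10b that value stayed at -0.20 with average-profile centring and with the constant taken off, and was -0.28 at Ct 32. These turns in sign thus came with a move of all assays. The cause of the turns with quantile normalization or with a sample left out was not tested. In the reported fit, with 2 samples per group and 1 variance shared over assays, a 2.38-fold difference was needed for an unadjusted limma p of 0.05.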
